A study of Mus musculus with 2 samples.

Results

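The 9 chemokine genes described here are *Cxcl1*, *Cxcl2*, *Cxcl5*, *Cxcl12*, *Cxcl16*, *Ccl2*, *Ccl7*, *Ccl20* and *Cx3cl1*. They were chosen by name from the 31053 genes counted in single-cell RNA sequencing (scRNA-seq) of cultured vascular smooth muscle cells (VSMCs). The cells were primary VSMCs isolated from the aortae of wildtype mice, with the cells of several aortae pooled per preparation, and were cultured for 5 days in medium with serum. The 2 libraries are biological replicates of a single condition, so that there was no treated group and the comparisons are between cells of the same culture. In the 10x Genomics 3′ method used, each mRNA molecule carries the barcode of its cell and a unique molecular identifier (UMI), and molecules are counted rather than reads. The age of these animals was not given in the sources used here.

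Chemokines are small secreted proteins that attract leukocytes along a concentration gradient by way of G protein-coupled receptors. CXC chemokines such as *Cxcl1*, *Cxcl2* and *Cxcl5* attract mainly neutrophils through the receptor Cxcr2, while the CC chemokines *Ccl2* and *Ccl7* attract monocytes through Ccr2. In the artery wall, they are known for the recruitment of leukocytes into inflamed and atherosclerotic vessels. *Cxcl12* is different in that it is made constitutively by stromal cells and retains progenitor cells and lymphocytes through Cxcr4, and *Cxcl16* and *Cx3cl1* are made as membrane-anchored proteins that are released by the sheddases Adam10 and Adam17.

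The deposited counts summed to 127949633 UMIs in replicate 1 and 132561822 UMIs in replicate 2. Barcodes were kept as cells if they had 300 genes or more, 3000 UMIs or more and less than 20% mitochondrial UMIs, which left 4866 and 6824 cells with a median of 22234.5 and 16310 UMIs. The libraries had 9 cell barcodes in common. Cells with 2 or more UMIs in each of at least 2 of the endothelial markers *Pecam1*, *Cdh5*, *Cldn5* and *Gja4* were called endothelial cells (ECs; 102 and 141 cells), and, as the rule sets by itself, the 4 markers summed to 2286 and 2357 counts per 1000000 UMIs (CPM) in them, against at most 5.26 CPM in any other class. The other cells were divided by *Myh11*, the smooth muscle myosin heavy chain that marks contractile VSMCs, by *Il1rn*, the interleukin-1 receptor antagonist, and by 12 cell cycle genes. This gave non-cycling *Myh11*-high cells with 5 or more *Myh11* UMIs (233 and 443 cells), non-cycling *Myh11*-low cells with 0 or 1 *Myh11* UMIs and no *Il1rn* UMI (1691 and 3255 cells), *Il1rn*-positive *Myh11*-low cells (476 and 193 cells), cycling *Myh11*-low cells (1787 and 1914 cells) and cycling *Myh11*-high cells (216 and 433 cells). A remainder of 361 and 445 cells was left out of the sums, mainly cells with 2 to 4 *Myh11* UMIs. The 12 macrophage markers, which the cell type label does not cover, summed to 38.6 and 87.8 CPM in *Il1rn*-positive cells, to 34.1 and 37.1 CPM in ECs and to 4.78 to 44.1 CPM in the *Myh11*-high, *Myh11*-low and cycling *Myh11*-low classes.

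All values below are UMIs summed over the cells of a class in a library and expressed as CPM, with the library as the replicate (n = 2). The CPM is not divided by gene length, and levels of different genes are therefore not ranked. Classes were compared with edgeR's quasi-likelihood test and Benjamini-Hochberg adjustment over the 12991 genes tested. Of the 9 chemokines, 8 passed the filter on low counts. *Ccl20*, a ligand of Ccr6, did not pass it, with 4 UMIs in all cells of replicate 1 and 6 in replicate 2, and was not tested. *Cxcl16* overlaps *Zmynd15* and *Ccl2* overlaps *Gm17268*, each on the other strand, and whether the counting used the strand is not given in the sources used here. Of the *Cxcl2* transcript, 5.32% of stretches of 60 bases also occur in *Cxcl3*, so that its count is uncertain to that extent.

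The neutrophil-attracting genes *Cxcl1* and *Cxcl2* lie close to each other on chromosome 5, and the bases before their starts are shown since both genes were measured here in few cells. *Cxcl1* is at chr5:90891241-90893115 and *Cxcl2* at chr5:90903871-90905938 of GRCm38, both on the plus strand. Of the 9 chemokines, 5 had a promoter window in the RefSeq table of GRCm38.p6. The 80 bases up to the start are given for both, 5′ to 3′, on the plus strand, from chr5:90891161-90891240 for *Cxcl1* and chr5:90903791-90903870 for *Cxcl2*, and capitals mark runs of at least 10 bases that both windows hold.
Cxcl1: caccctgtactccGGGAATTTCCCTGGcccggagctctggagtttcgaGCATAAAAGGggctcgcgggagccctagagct
Cxcl2: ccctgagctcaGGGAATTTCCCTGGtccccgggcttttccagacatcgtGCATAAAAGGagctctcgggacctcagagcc
The windows shared a run of 14 bases and a run of 10 bases. On either strand, the 14-base run was found in 2 of all 32851 windows of 250 bases before a start (0.00609%), those of *Cxcl1* and *Cxcl2*, and the 10-base run in 19 windows (0.0578%). The 14-base run contains a match to the kappaB consensus, the element read by NF-kB factors, on both strands with an overlap of 9 bases. This consensus was present in 1281 of the windows (3.9%), among them that of *Ccl20*, and had no match in those of *Cxcl12* and *Cx3cl1*. A match describes the letters only.

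**Figure D1:**
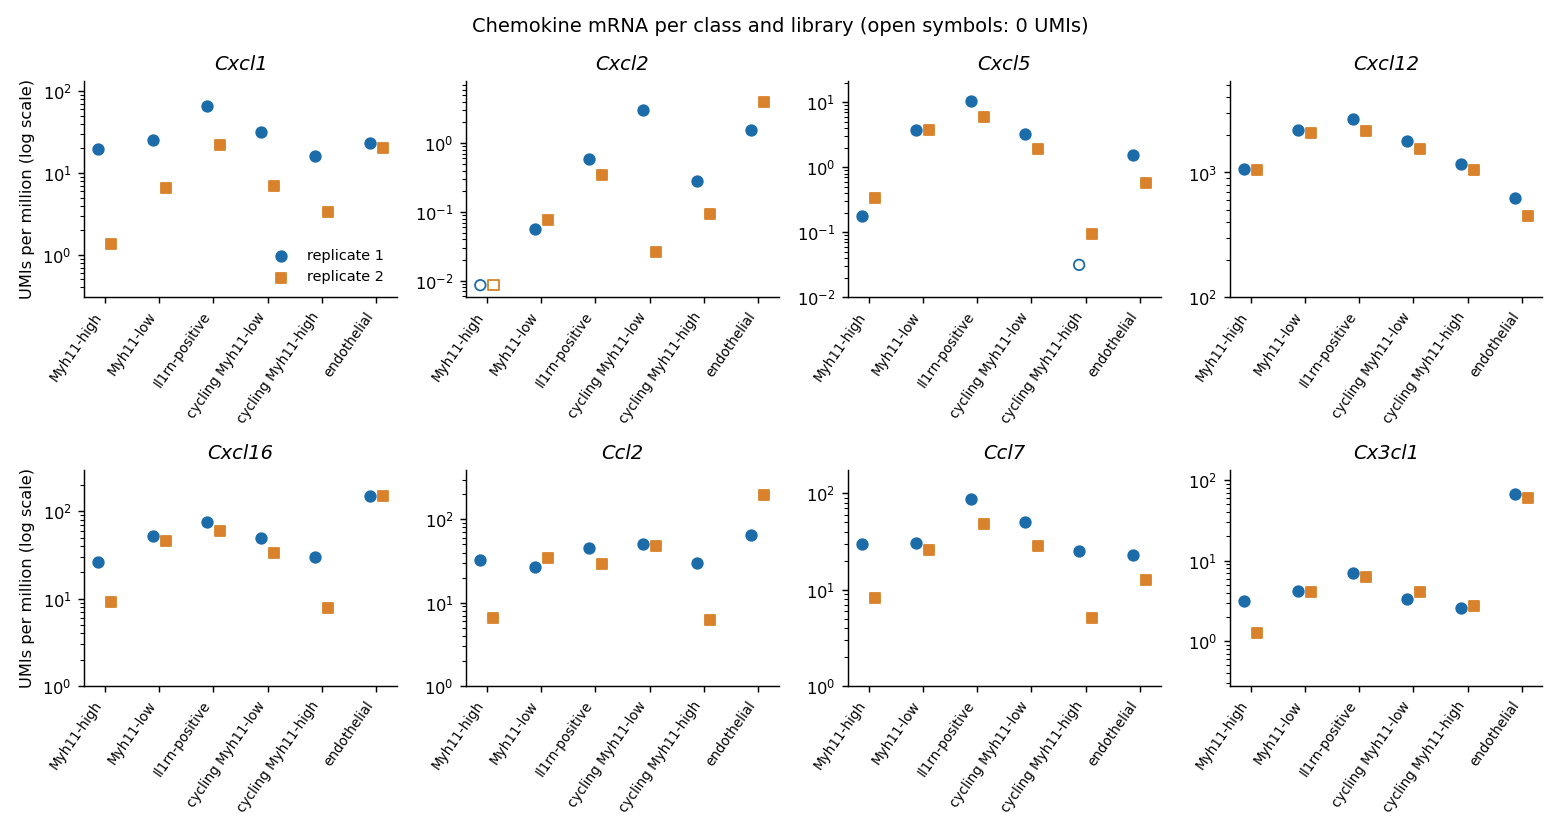
Summed CPM (vertical axis, log scale) of 8 chemokines in 6 classes of cells, with 1 point per library (circles, replicate 1; squares, replicate 2) and open symbols at the bottom for 0 UMIs. *Cx3cl1* stood at 59.4 and 67.3 CPM in ECs and below 7 CPM in every other class, whereas *Cxcl12* was lowest in ECs.

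*Cxcl1*, a neutrophil attractant, had its higher level in replicate 1 in every class. Over all cells its level was 30.9 CPM in replicate 1 and 6.42 CPM in replicate 2 (3687 and 794 UMIs). In *Myh11*-high cells the levels were 19.5 and 1.36 CPM, in *Myh11*-low cells 25.1 and 6.58 CPM, and in *Il1rn*-positive cells 66.1 and 21.7 CPM. The range of *Myh11*-low cells overlapped with that of *Myh11*-high and that of *Il1rn*-positive cells. Within replicates 1 and 2, the log2 difference was 0.33 and 2.16 by *Myh11*, and 1.37 and 1.64 by *Il1rn*. *Cxcl1* was detected in 15.8% of *Myh11*-low cells of replicate 1 (95% exact binomial interval 14.1 to 17.6%) and in 5.32% of those of replicate 2 (4.57 to 6.14%), against 2.60% and 0.529% expected from free RNA in the droplets alone. In *Myh11*-high cells of replicate 2, the detected share was 2.26%, beside 2.52% estimated from free RNA. That estimate is too high for these cells, as *Ccl2* shows below, and sets no background. These intervals cover counting error only.

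*Cxcl2* was close to absent from the smooth muscle classes. It had 0 UMIs in *Myh11*-high cells of both libraries, and 2 and 4 UMIs in *Myh11*-low cells. In replicate 1, cycling *Myh11*-low cells reached 3.02 CPM, whereas replicate 2 had 0.0258 CPM. The cells holding these UMIs carried macrophage genes: 11 cells of replicate 1 with 10 or more UMIs over *Ptprc*, *C1qa*, *C1qb*, *C1qc*, *Tyrobp* and *Laptm5*, a criterion set after the values were seen, held 146 of the 164 *Cxcl2* UMIs of that library. The 5 such cells of replicate 2 held 0 of 14. Without these cells, *Cxcl2* in cycling *Myh11*-low cells of replicate 1 was 0.143 CPM. The same 11 cells held a much smaller part of the other chemokines, with 48 of 3687 *Cxcl1* UMIs, 343 of 4929 *Ccl2* UMIs and 301 of 5320 *Ccl7* UMIs. They also held 168 of the 170 UMIs of *Ccl4* and 52 of the 56 UMIs of *Ccl3*, which are chemokines of myeloid cells.

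*Cxcl5*, the remaining neutrophil attractant (chr5:90759360-90761624, plus strand), was higher in *Myh11*-low than in *Myh11*-high cells. It had 3.70 and 3.75 CPM in *Myh11*-low cells of replicates 1 and 2, from 133 and 196 UMIs, and 0.177 and 0.341 CPM in *Myh11*-high cells, from 1 and 3 UMIs. The groups did not overlap, and the log2 fold change was 3.66 ± 0.63 (SE; edgeR adjusted p = 0.0128). Of all genes tested, 2.11% were called higher in this comparison. *Cxcl5* was detected in 2.25% and 2.34% of *Myh11*-low cells, so that its level came from a small minority of them. In *Il1rn*-positive cells it reached 10.6 and 5.85 CPM, and 7.35% and 5.18% of the cells had a UMI. The order of the classes by mean level was *Il1rn*-positive, *Myh11*-low, cycling *Myh11*-low, endothelial, *Myh11*-high and cycling *Myh11*-high, with no overlap between neighbours in this order. The values of the last 3 classes rest on 0 to 3 UMIs per library.

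*Cxcl12*, the ligand of Cxcr4 (chr6:117168535-117181367, plus strand), was also higher in *Myh11*-low than in *Myh11*-high cells, but unlike the other chemokines it had a UMI in nearly every cell. The levels were 2203 and 2058 CPM in *Myh11*-low cells and 1058 and 1039 CPM in *Myh11*-high cells. The groups were separate, with a log2 fold change of 0.96 ± 0.18 (SE; edgeR adjusted p = 0.0208). A UMI was found in 98.1% and 97.8% of *Myh11*-low cells and in 96.1% and 96.2% of *Myh11*-high cells. Free RNA alone would give 74.5% and 59.3% in *Myh11*-low and 91.3% and 97.4% in *Myh11*-high cells. The share in *Myh11*-high cells of replicate 2 did not exceed this estimate. The estimate is too high for these cells, as *Ccl2* shows below, and sets no background. After each cell was thinned to 3000 UMIs, these shares were 89.9% and 90.6% in *Myh11*-low and 72.2% and 76.6% in *Myh11*-high cells. By mean level the classes followed the order *Il1rn*-positive (2434 ± 379 CPM; SD, n = 2), *Myh11*-low (2131 ± 102), cycling *Myh11*-low (1662 ± 166), cycling *Myh11*-high (1105 ± 95.2), *Myh11*-high (1048 ± 13.9) and endothelial (536 ± 121). In this order *Il1rn*-positive overlapped with *Myh11*-low, and cycling *Myh11*-high with *Myh11*-high cells.

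*Cxcl16* (chr11:70453983-70459984, minus strand) and *Cx3cl1* (chr8:94772009-94782427, plus strand), the membrane-anchored chemokines, had higher mean levels in *Myh11*-low than in *Myh11*-high cells, but did not pass the test without the library as a block, except that *Cxcl16* did with *Myh11* cuts of 10 and 0 UMIs (adjusted p = 0.0432). *Cxcl16* was at 52.4 and 45.7 CPM in *Myh11*-low and at 26.3 and 9.10 CPM in *Myh11*-high cells, without overlap (log2 fold change 1.44 ± 0.60, adjusted p = 0.222; with the block 1.55 ± 0.38, adjusted p = 0.0147). *Cx3cl1* was at 4.25 and 4.13 CPM against 3.19 and 1.25 CPM, also without overlap (0.93 ± 0.33, adjusted p = 0.15; with the block 0.97 ± 0.30, adjusted p = 0.0426). The share of all genes without overlap by *Myh11* is not given here. Lack of overlap by itself is therefore no result about these genes, nor about *Cxcl5* and *Cxcl12*. Sums of 1 library come from 1 culture and were paired by the block, in which 13.3% of all genes were called higher. *Cxcl16* was detected in 49.1% and 38.3% of *Myh11*-low cells. In *Myh11*-high cells the shares were 30.9% and 8.58%. For the latter, free RNA was put at 8.84%, an estimate too high for these cells, as *Ccl2* shows below. It sets no background for them. For *Myh11*-high cells the free RNA estimate is rough. It rests on the 4 endothelial markers, *Gja4* among them, and whether VSMCs express these themselves was not tested.

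The monocyte attractants *Ccl2* and *Ccl7* did not pass the test by *Myh11*. *Ccl2* was at 26.7 and 34.3 CPM in *Myh11*-low cells and at 32.1 and 6.59 CPM in *Myh11*-high cells. *Ccl7* was at 30.4 and 25.9 CPM against 30.2 and 8.19 CPM. The log2 difference was -0.30 in replicate 1 and 2.28 in replicate 2 for *Ccl2*, and -0.03 and 1.56 for *Ccl7*, so that both genes were lower in *Myh11*-high cells in replicate 2 alone. The fitted log2 fold changes were 0.64 ± 0.82 (adjusted p = 0.745) and 0.53 ± 0.75 (adjusted p = 0.772). In *Myh11*-high cells of replicate 2, 3.61% had a *Ccl2* and 3.16% a *Ccl7* UMI, below the 8.20% and 6.24% estimated from free RNA. Free RNA alone cannot give more than was found, so the estimate is too high here and sets no background for these cells. It put free RNA at 15.7% of their UMIs, against 4.02% in *Myh11*-low cells of that library.

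Of the 8 chemokines tested, 2 were thus higher in *Myh11*-low cells and 0 lower, beside 2.11% and 3.61% of all genes. With the block 4 were higher and 0 lower, beside 13.3% and 12.2% of all genes. The median log2 fold change of the 8 was 0.94, beside 0.05 over all genes. The fitted value of *Cxcl2* in this median depends on the prior count, as the gene was at 0 in *Myh11*-high cells. *Cxcl2* also passed the filter on low counts only through the ECs. Among the sheddases, *Adam17* was higher in *Myh11*-low cells, with 41.7 and 41.9 CPM against 23.1 and 14.9 CPM (log2 fold change 1.09 ± 0.24, adjusted p = 0.0355). *Adam10* was at 56.6 and 56.5 CPM against 46.7 and 42.0 CPM (0.29 ± 0.13, adjusted p = 0.279). None of 13 other chemokines, 5 chemokine receptors, 15 genes of interleukin-1, TNF and Toll-like receptor input and 25 NF-kB feedback and target genes tested passed in either direction. With the block, 1 of the other chemokines, 7 of the input genes and 8 of the NF-kB genes were higher, and 2 NF-kB genes were lower, to be read against the 13.3% and 12.2% of all genes. The smallest adjusted p-values in these lists after *Adam17* belonged to *Ptgs2*, the inducible cyclooxygenase, *Tnfrsf1a*, a TNF receptor, and *Il33*, an interleukin-1 family cytokine. *Ptgs2* was at 56.7 and 52.1 CPM in *Myh11*-low and 120.3 and 87.0 CPM in *Myh11*-high cells (-0.99 ± 0.24, adjusted p = 0.0504; with the block adjusted p = 0.0081). *Tnfrsf1a* had a log2 fold change of 0.59 ± 0.20 (adjusted p = 0.131; with the block 0.000398) and *Il33* of 2.94 ± 1.04 (adjusted p = 0.15; with the block 0.00401). *Il6*, a cytokine, had 14.0 and 5.51 CPM against 4.61 and 1.36 CPM (1.72 ± 1.17, adjusted p = 0.483; with the block 0.0117). *Nfkbia*, the NF-kB inhibitor that NF-kB itself induces, had 0.41 ± 0.33 (adjusted p = 0.557; with the block 0.0128).

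**Figure D2:**
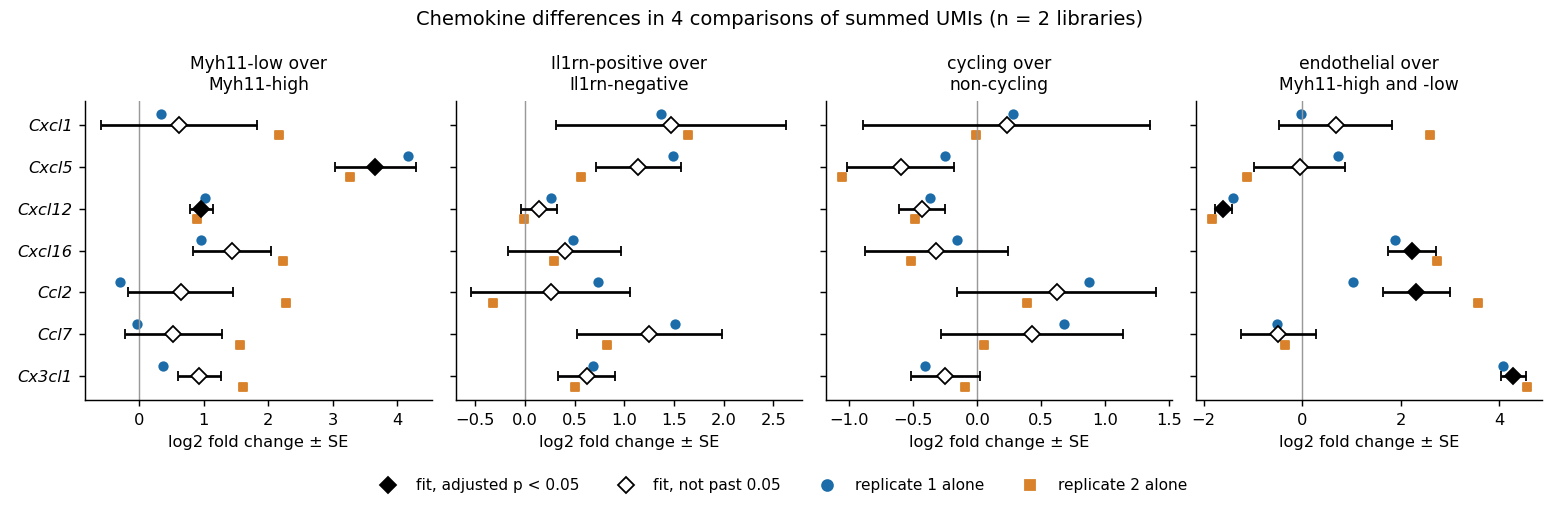
Log2 fold changes (horizontal axis) of 7 chemokines in 4 comparisons between classes: diamonds with bars give the fit ± SE, filled where the adjusted p was under 0.05, and circles and squares the difference within replicate 1 and within replicate 2 alone. *Cxcl5* and *Cxcl12* were called by *Myh11*, none by *Il1rn* or cycling, and *Cxcl12*, *Cxcl16*, *Ccl2* and *Cx3cl1* in ECs; *Cxcl2* is not drawn since it had 0 UMIs in *Myh11*-high cells.

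The *Il1rn* comparison asks whether chemokine mRNA was higher in *Myh11*-low cells with an *Il1rn* UMI than in those without. Cells with *Il1rn* were more frequent in replicate 1, with 21.97% of non-cycling *Myh11*-low cells against 5.60% in replicate 2. *Cxcl1* was at 66.1 and 21.7 CPM in *Il1rn*-positive cells, against 25.1 and 6.58 CPM in *Il1rn*-negative cells. Within each library *Il1rn*-positive cells were the higher class, but the ranges overlapped between libraries, and the log2 fold change was 1.47 ± 1.16 (adjusted p = 1; with the block 1.43 ± 0.35, adjusted p = 0.173). *Ccl7* was at 88.1 and 48.5 CPM against 30.4 and 25.9 CPM, and *Cxcl5* at 10.6 and 5.85 CPM against 3.70 and 3.75 CPM. The classes did not overlap for these 2 genes, with log2 fold changes of 1.25 ± 0.73 and 1.14 ± 0.43 (adjusted p = 1 for both; with the block 0.278 and 0.205). *Cxcl16* and *Cx3cl1* also did not overlap, with log2 fold changes of 0.40 ± 0.57 and 0.62 ± 0.29. The share of all genes without overlap is not given here, so the lack of overlap is no result about these genes. *Cxcl12* (0.14 ± 0.18) and *Ccl2* (0.26 ± 0.80) overlapped, and *Ccl2* was lower in *Il1rn*-positive cells of replicate 2.

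None of the 8 chemokines passed the test, and neither did any other gene: edgeR called 0% of genes in either direction, while 404 genes had an unadjusted p under 0.05 and DESeq2 called 22 genes. With the block, 0.369% of genes were called, and none of them was one of the 8. The median log2 fold change of the 8 chemokines was 0.88, against -0.02 over all genes. It includes *Cxcl2* (2.77 ± 1.97), which had only 0.579 and 0.344 CPM in *Il1rn*-positive cells. *Cxcl2* passed the filter on low counts only through the ECs, so this median is no result about the chemokines as a set. The detected share of *Cxcl1* was 28.2% and 16.6% in *Il1rn*-positive cells against 15.8% and 5.32% in negative ones, and that of *Ccl7* 35.7% and 19.2% against 19.0% and 12.2%. Thinned to 3000 UMIs per cell, they were 11.96% and 6.16% against 5.99% and 1.75% for *Cxcl1*, and 14.8% and 8.29% against 6.27% and 4.86% for *Ccl7*. In the lists, 0 genes were called, and apart from *Ccl6* and *Il1rn*, by which the cells were chosen, every adjusted p was 1. *Ccl6*, a myeloid chemokine, had 5.41 and 9.29 CPM in *Il1rn*-positive and 0.0556 and 0.230 CPM in negative cells (5.46 ± 0.82, adjusted p = 0.671; with the block 0.0102). Of the 12 macrophage markers, 11 and 12 had UMIs in *Il1rn*-positive cells, and 10 and 11 in negative cells. Of all *Ccl6* UMIs, 66 of 73 in replicate 1 and 37 of 46 in replicate 2 were in the 11 and 5 cells with macrophage genes described above. Only 2 of these cells in each library were *Il1rn*-positive. Most of the 56 and 27 *Ccl6* UMIs of the *Il1rn*-positive class thus came from 2 cells per library. *Il1r1*, the interleukin-1 receptor that *Il1rn* blocks, was at 147 and 50.6 CPM against 80.6 and 25.0 CPM (with the block adjusted p = 0.0413).

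No chemokine passed the test between cycling and non-cycling *Myh11*-low cells, while 5.59% of all genes did. *Cxcl12* was lower in both libraries, at 1779 and 1545 CPM against 2203 and 2058 CPM. Its log2 fold change of -0.43 missed the threshold (SE 0.18, adjusted p = 0.322) and passed it with the block (-0.43 ± 0.10, adjusted p = 0.0138), where 8.67% of genes were called lower. *Ccl2* was at 50.9 and 47.5 CPM in cycling cells, above the 26.7 and 34.3 CPM of non-cycling cells in both libraries, with a log2 fold change of 0.62 ± 0.78 (adjusted p = 0.849). It was detected in 24.5% and 16.8% of cycling and 13.4% and 9.80% of non-cycling cells, and after thinning in 8.32% and 6.15% against 4.64% and 4.30%. Without the macrophage-marker cells described above, cycling cells of replicate 1 had 44.2 CPM of *Ccl2*. The cycling class also held cells with an *Il1rn* UMI (437 and 107 cells), which the non-cycling class by its definition did not. Without them, a choice made after the values were seen, cycling cells had 40.8 and 46.1 CPM of *Ccl2* and 1661 and 1525 CPM of *Cxcl12*. The other chemokines ranged from a log2 fold change of -0.60 for *Cxcl5* to 0.43 for *Ccl7*, apart from *Cxcl2*, for which the libraries went in opposite directions.

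In ECs, *Cx3cl1*, known as a surface chemokine of endothelium, had the smallest adjusted p of the 8 chemokines. It was at 67.3 and 59.4 CPM in ECs, against 4.25 and 4.13 CPM in *Myh11*-low and 3.19 and 1.25 CPM in *Myh11*-high cells. The log2 fold change against the mean of both VSMC classes was 4.29 ± 0.25 (adjusted p = 4.71e-06), and 52.9% and 33.3% of ECs had a UMI, where free RNA alone would give 0.275% and 0.211%. Outside ECs, *Cx3cl1* was still detected in 2.48 to 12.8% of cells per class and library, where free RNA alone would give 0.0461 to 1.65%. *Cxcl16* was at 149.3 and 149.1 CPM in ECs, above all other classes, and was detected in 76.5% and 69.5% of ECs. Its log2 fold change against the mean of both VSMC classes was 2.23 ± 0.49 (edgeR adjusted p = 0.00808). Most UMIs of both genes were spread over many ECs, since the 3 richest ECs held 23.5% and 26.0% of the *Cx3cl1* and 10.2% and 13.8% of the *Cxcl16* UMIs.

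*Ccl2* was also higher in ECs, but from few cells. Its level was 64.7 CPM in replicate 1 and 197 CPM in replicate 2, above all other classes. Against the mean of non-cycling *Myh11*-high and *Myh11*-low cells, the log2 fold change was 2.32 ± 0.68 (edgeR adjusted p = 0.0301). Cycling *Myh11*-low cells, at 50.9 and 47.5 CPM, were not part of this test. In each library, 18 ECs had a *Ccl2* UMI, and the 3 richest of them held 61.4% and 79.1% of the UMIs, with 169 in 1 cell of replicate 2. With the UMIs of those 3 cells taken out, a value computed after they had been seen, the level was 25.0 and 41.1 CPM. The UMI total of all ECs was kept in it, so it is biased low. *Myh11*-low cells had 26.7 and 34.3 CPM with their own richest cells kept, so the values are not like for like. Outside ECs the top 3% of cells held 63.3% of the *Ccl2* UMIs in replicate 1, and the top 2% held 70.4% in replicate 2. The call was lost without cells with 2 or more UMIs of macrophage markers (adjusted p = 0.0886), without the 5% of cells with the most UMIs (0.0532) and with free RNA subtracted (0.0841), over a range of 0.0023 to 0.0886 in all alternatives, while the log2 fold change stayed between 1.65 and 3.19. Of the ECs, 12.7% and 12.1% had 2 or more UMIs of macrophage markers, against 2.42% and 1.35% of *Myh11*-low cells. Of these 12 markers, 9 were tested, and *Cd14*, *Cd68* and *Laptm5* were called higher in ECs. The other 6 did not pass. In each library, 4 of the 12 had UMIs in ECs, the fourth being *Csf1r*, and the defining markers *Ptprc*, *Adgre1*, *C1qa*, *C1qb*, *C1qc* and *Tyrobp* were at 0.

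*Cxcl12* was lower in ECs, at 622 and 451 CPM (-1.60 ± 0.17, adjusted p = 0.000176). Its detected share of 66.7% and 56.7% was close to the 66.1% and 60.5% that free RNA alone would give, so this share by itself says nothing on expression. The estimate for ECs uses the free RNA share of the other classes. The 3 richest ECs held 30.4% and 28.4% of the *Cxcl12* UMIs, with up to 147 and 104 in 1 cell. The level itself was called lower under all 11 alternatives, free RNA subtracted among them. *Cxcl2* was at 1.53 and 3.998 CPM in ECs, from 3 and 7 UMIs in 3 and 2 cells. Taken over both libraries, these 10 UMIs gave 12.95-fold the 0.208 CPM that the 0 UMIs of *Myh11*-high cells allow (3 counts over the class). This covers the counting error of *Myh11*-high cells only, not that of the few EC UMIs. The edgeR adjusted p of 0.0555 passed the threshold with the block (0.0487). Outside ECs, only cycling *Myh11*-low cells of replicate 1 came near this level (3.02 CPM). *Cxcl2* thus passed the filter on low counts only through the ECs, and its test there is no support. Of the 7 *Cxcl2* UMIs of replicate 2, 6 were in a single EC. Non-cycling ECs, chosen after the values were seen, had 2 and 1 *Cxcl2* UMIs, at 1.73 and 0.859 CPM. *Cxcl1* (0.68 ± 1.14), *Cxcl5* (-0.05 ± 0.92) and *Ccl7* (-0.48 ± 0.76) did not pass.

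Of the 8 chemokines, 3 were higher and 1 lower in ECs, where 19.7% of all genes were called higher and 11.9% lower. With the block 4 were higher and 1 lower, beside 25.6% and 18.6% of all genes. The 4 include *Cxcl2*, which passed the filter on low counts only through the ECs. The median log2 fold change of the 8 was 1.45, beside 0.05 over all genes. This median includes the 6.87 of *Cxcl2*, so it is no result about the chemokines as a set. The ECs include cycling cells (27 and 31 cells) and were compared with non-cycling classes, and all 12 cycling genes were called higher in them. In the non-cycling ECs, chosen after the values were seen, *Cx3cl1* was at 93.7 and 77.3 CPM, *Cxcl16* at 162 and 175 CPM, *Ccl2* at 66.8 and 79.9 CPM and *Cxcl12* at 489 and 365 CPM. This comparison and that by *Myh11* share the sums of *Myh11*-high and *Myh11*-low cells. Of 23 receptors listed, 5 passed the filter on low counts and were tested, and 4 of these were higher in ECs. A gene low in the other classes can pass this filter through the ECs alone, so the 4 are no share of the list. *Cxcr4*, the receptor of *Cxcl12*, had 4.08 and 9.14 CPM in ECs, from 8 and 16 UMIs. It had 0 UMIs in *Myh11*-high and 3 and 2 UMIs in *Myh11*-low cells (edgeR adjusted p = 0.000638). By these counts *Cxcr4* can have passed the filter through the ECs alone, and its test is then no support. *Ackr3*, which binds and removes *Cxcl12*, had 21.9 and 27.4 CPM against 9.98 and 9.63 CPM in *Myh11*-low and 13.1 and 7.504 CPM in *Myh11*-high cells (1.18 ± 0.33, adjusted p = 0.0241). *Ccrl2* and *Ackr4*, atypical receptors, were the others (4.35 ± 0.54, adjusted p = 0.0004; 3.45, adjusted p = 0.0101). Whether *Ccrl2* and *Ackr4* passed the filter through the ECs alone is not given here. *Ccr2*, the receptor of *Ccl2* and *Ccl7*, had at most 1 UMI per class and library, and *Cx3cr1*, the receptor of *Cx3cl1*, had 0 UMIs in ECs. *Ackr1*, which binds many chemokines without signaling, had 1 and 6 UMIs in ECs and was not tested, nor was *Ccr2*. The sheddase *Adam10* was higher in ECs, with 114 and 131 CPM (1.17 ± 0.12, adjusted p = 0.000108), while *Adam17* did not pass (0.11 ± 0.23, adjusted p = 0.761). Of 25 NF-kB genes, 7 were higher, such as the adhesion receptors *Vcam1* (2.43 ± 0.18, adjusted p = 1.9e-05) and *Icam1* (2.77 ± 0.56, adjusted p = 0.00554) and *Nfkbia* (0.99 ± 0.28, adjusted p = 0.0252), and 2 were lower, among them *Ptgs2* (-0.71 ± 0.23, adjusted p = 0.0431). Of 15 input genes, 0 were higher and 1 lower, and of 13 other chemokines 1 was higher and 0 lower.

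**Figure D3:**
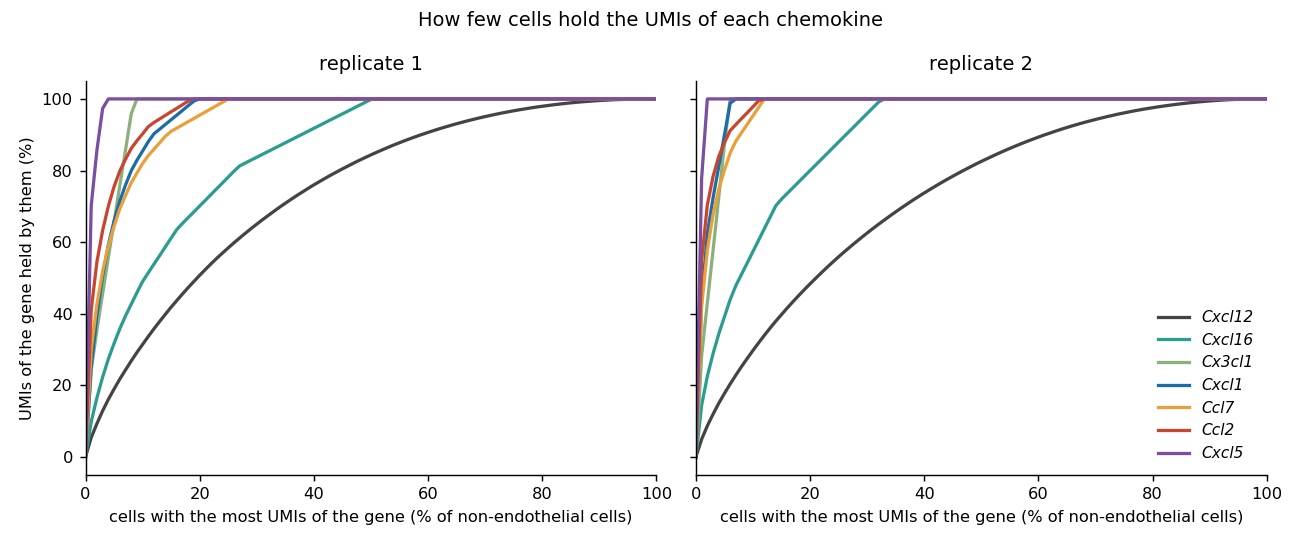
Percent of the UMIs of each chemokine (vertical axis) held by the non-endothelial cells with the most UMIs of it (horizontal axis, percent of cells), for 7 chemokines in replicate 1 (left) and replicate 2 (right). *Cxcl12* rose slowest, with 19.0% and 17.7% of its UMIs in the top 5% of cells, whereas the top 5% held 75.5% and 87.8% of the *Ccl2* UMIs.

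Within the non-endothelial cells (4764 and 6683 cells), the chemokines fell into widely and rarely detected ones. *Cxcl12* had a UMI in 98.4% and 97.7% of cells, where free RNA alone would give 77.6% and 74.6%, and the 5% of cells with the most UMIs of it held 19.0% and 17.7% of them. *Cxcl16* was detected in 50.2% and 32.6% of cells, against 4.88% and 3.06% from free RNA alone. *Ccl2* was concentrated in a few cells, as 18.6% and 11.3% of cells had a UMI, while 59.1% and 42.9% would have had one if its UMIs were spread by depth alone. The 1% of cells with the most *Ccl2* held 41.1% and 54.9% of its UMIs, and a single cell had up to 144 and 138. *Cxcl1* had a UMI in 19.4% and 6.135% of cells, against 50.1% and 10.6% by depth alone. For *Ccl7* the shares were 25.02% and 11.99%, against 62.1% and 33.1%. The top 5% of cells held 65.9% and 90.0% of the *Cxcl1* and 64.4% and 80.2% of the *Ccl7* UMIs. A high top 5% share alone does not show concentration, since it was 65.6% and 87.4% for *Cx3cl1*. *Cx3cl1* had a UMI in 8.42% and 5.85% of cells, close to the 9.35% and 6.47% by depth alone. Highest counts in a cell were 43 and 12 UMIs for *Cxcl1*, 160 and 73 for *Ccl7*, 29 and 16 for *Cxcl5*, and 6 in both libraries for *Cx3cl1*. The top 5% include cells with 1 UMI where fewer cells than that were richer.

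Co-occurrence in single cells was measured as the share of cells with a UMI of both genes, over the share expected if the genes were independent among cells of like depth (deciles of the UMI count). These ratios are a description with no test, since cells of 1 library are not replicates. *Ccl2* and *Ccl7*, which are neighbours on chromosome 11 (chr11:82035571-82037453 and chr11:82045712-82047525, both on the plus strand), were found together in 533 and 354 cells, 2.21 and 3.58 times the expected number. *Ccl7* had a UMI in 60.1% and 46.9% of cells with *Ccl2*, and in 17% and 7.54% of cells without it. Requiring 2 UMIs of each gene, the ratios were 3.58 and 6.49, and within non-cycling *Myh11*-low cells they were 2.38 and 3.75. Their transcripts shared no stretch of 60 bases with each other or with other genes.

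*Cxcl1* and *Cxcl5*, which lie in 1 cluster on chromosome 5, were found together in 76 and 42 cells, 2.46 and 5.19 times the expected number (2.37 and 4.56 in non-cycling *Myh11*-low cells). Leaving out *Cxcl2*, whose pairs rest on at most 12 cells, ratios between the neutrophil and monocyte attractants were lower, with 1.59 and 1.79 for *Cxcl1* and *Ccl2*, 1.61 and 1.93 for *Cxcl1* and *Ccl7*, and 2.15 and 2.32 for *Cxcl5* and *Ccl7*. *Cxcl5* and *Ccl2* had 2.04 and 1.45, but 0.968 in non-cycling *Myh11*-low cells of replicate 2. *Cxcl16* had ratios of 1.10 to 1.35 with *Cxcl1*, *Cxcl5*, *Ccl2* and *Ccl7*. In non-cycling *Myh11*-low cells these ratios were nearer to 1, from 0.966 to 1.175, the lowest with *Cxcl1* in replicate 2. *Cx3cl1* had no common direction with *Cxcl5* (1.35 and 0.758) or *Ccl7* (1.11 and 0.902). *Cxcl12* had 0.99 to 1.02 with each of the others, as a gene found in nearly all cells must. With *Il1rn*, the ratios were 2.19 and 2.87 for *Cxcl5*, 1.51 and 2.44 for *Cxcl1*, 1.61 and 1.96 for *Ccl7* and 1.42 and 1.44 for *Ccl2*.

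**Figure D4:**
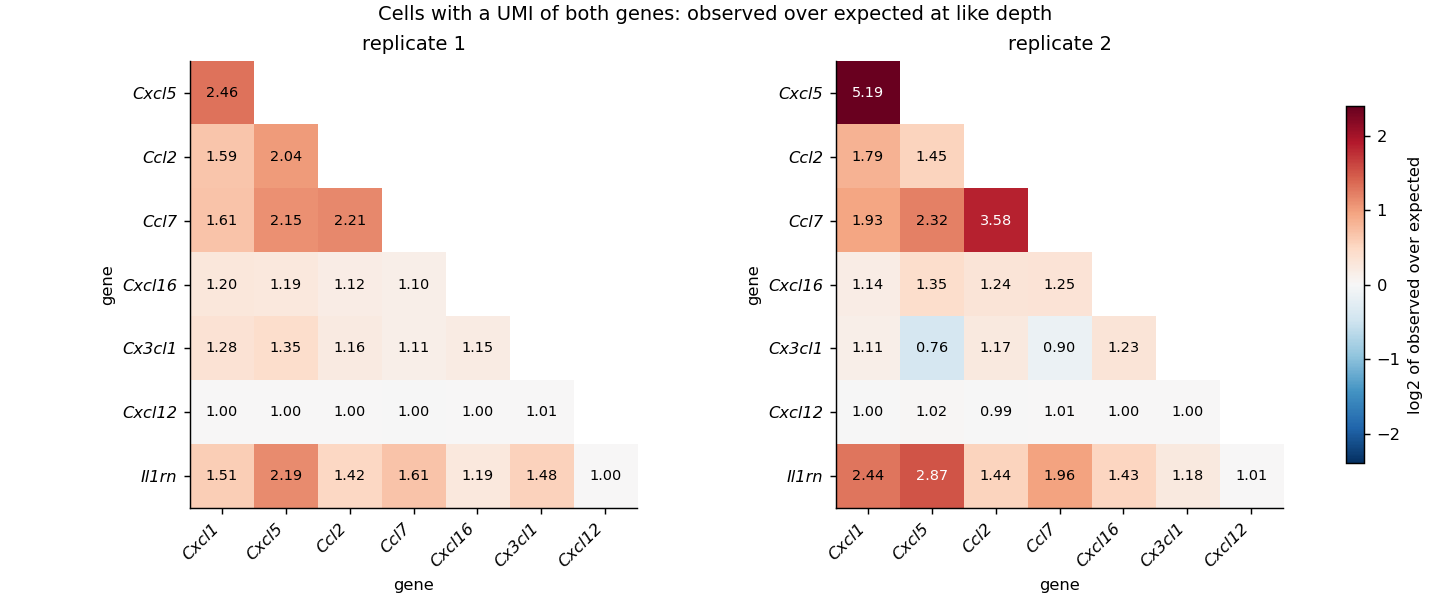
Ratio of observed to expected share of non-endothelial cells with a UMI of both genes (numbers; color, log2 of the ratio) for pairs of 7 chemokines and *Il1rn*, in replicate 1 (left) and replicate 2 (right). *Cxcl1* with *Cxcl5* and *Ccl2* with *Ccl7* had the highest ratios between these chemokines, and the row of *Cxcl12* was close to 1.

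Counted over *Cxcl1*, *Cxcl5*, *Cxcl16*, *Ccl2* and *Ccl7*, cells with none and cells with many were both more frequent than independence at like depth would give. All 5 were found in 29 cells of replicate 1 (0.609%) and 3 cells of replicate 2 (0.0449%), against 0.0220% and 0.000687% expected. Another 154 and 35 cells had 4 of them. At the other end, 31.8% and 53.8% of cells had none, against 25.2% and 49.0% expected.

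Cells rich in *Ccl2* were also rich in *Ccl7* in both libraries. There were 256 and 174 non-endothelial cells with 5 or more *Ccl2* UMIs, and 3877 and 5928 without any. *Ccl7* was at 319 and 315.9 CPM in the rich cells, against 16.7 and 8.44 CPM in cells without *Ccl2*. *Cxcl1* was at 87.8 and 16.6 CPM against 22.8 and 5.59 CPM, which is higher in both libraries. *Cxcl5* differed in direction, with 10.5 and 1.53 CPM against 2.60 and 2.38 CPM. So did *Cxcl2*, with 10.1 and 0 CPM against 0.0760 and 0.0567 CPM. The cells with macrophage genes described above were not left out of these sets. *Cxcl12* was lower in the rich cells, with 1597 and 1321 CPM against 1974 and 1721 CPM, and so was *Myh11*, with 35.2 and 20.9 CPM against 87.9 and 109 CPM. The rich cells were deeper and more often cycling (62.5% and 47.1%, against 42.5% and 36.8%), and the part of either in these differences was not tested.

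**Figure D5:**
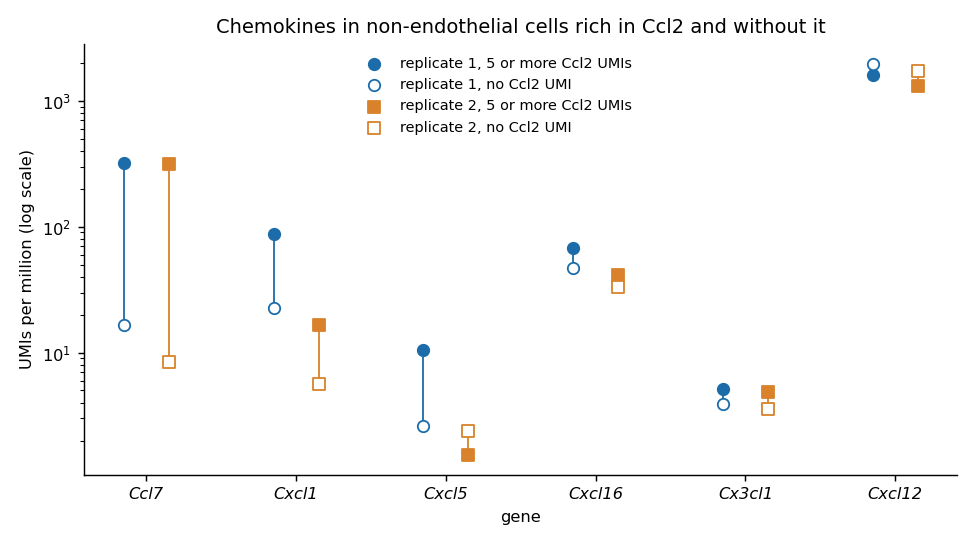
CPM (vertical axis, log scale) of 6 chemokines in non-endothelial cells with 5 or more *Ccl2* UMIs (filled) and without *Ccl2* (open), joined by a line within each library. *Ccl7* went from 16.7 to 319 CPM in replicate 1 and from 8.44 to 315.9 CPM in replicate 2, whereas *Cxcl12* was lower in the rich cells of both.

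Cells rich in *Cxcl1* (5 or more UMIs; 247 and 28 cells) likewise held more of *Cxcl5*, at 18.4 and 46.9 CPM against 1.98 and 1.56 CPM in cells without *Cxcl1*. *Ccl2* was at 121.5 and 305.6 CPM against 31.9 and 30.6 CPM, and *Il6* at 47.0 and 12.2 CPM against 9.72 and 4.12 CPM. All 3 genes were higher in the rich cells of both libraries, though the 28 cells of replicate 2 are few. Of these 28, 25% had a *Cxcl5*, 21.4% a *Ccl2* and 21.4% an *Il6* UMI, so the values rest on a minority of them. In cells without *Cxcl1* of that library, the shares were 1.435%, 10.6% and 5.29%. The cells with macrophage genes were not left out here either, and *Cxcl2* was at 14.6 and 0 CPM against 0.162 and 0.0176 CPM.

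Among 11546 genes ranked by the lower of both libraries' co-occurrence ratios, each with a UMI in at least 2% of non-endothelial cells of both libraries, those most like *Cxcl1* were *Steap4*, a metalloreductase (1.89 and 2.13), *Fndc1* (1.86 and 2.54), *Il6* (1.84 and 2.12), *C3*, the central complement component (1.67 and 3.03), and *Rgs16*, a regulator of G protein signaling (1.67 and 2.43). *Cxcl5* was below that limit in replicate 2 (1.98%, 132 of 6683 cells) and was not ranked. For *Ccl2*, *Ccl7* ranked highest of all genes, followed by *S1pr3*, a sphingosine-1-phosphate receptor (1.77 and 1.76), *Ptger4*, a prostaglandin E receptor (1.68 and 1.73), *Prkg2*, a cGMP-dependent protein kinase (1.79 and 1.66), and *Serpina3g*, a serpin (1.64 and 1.87). For *Cxcl12* this ranking cannot single out a gene, since a gene found in 98.4% and 97.7% of cells can reach no ratio much above 1. Its best ratios (*Ankrd6*, *Pcdhgb4*, *Akap5*, *Mylpf* and *Esrrg*) were at most 1.02.

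The libraries, which are replicates of 1 condition, differed in several chemokines. Over all cells the log2 ratio of replicate 2 to replicate 1 was -3.60 for *Cxcl2*, -2.27 for *Cxcl1*, -0.95 for *Ccl7*, -0.56 for *Cxcl5*, -0.53 for *Cxcl16*, -0.23 for *Ccl2*, -0.19 for *Cxcl12* and -0.18 for *Cx3cl1*. All 8 were lower in replicate 2, as was *Il1rn* (-2.80). The value of *Cxcl2* rests on the 11 cells with macrophage genes described above, and without these and the 5 of replicate 2 its log2 ratio was -0.42, from 18 and 14 UMIs, whereas that of *Cxcl1* was -2.25. With 1 library each, these ratios have no test. The libraries also name different versions of the processing software, whose part was not tested.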

How the data were processed

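Primary aortic VSMCs of wildtype mice (2 libraries, 5 days in culture) were profiled by scRNA-seq. The authors aligned the reads with Cell Ranger (mm10, version 3.0.2 per the labels, whereas the header of replicate 2 names 3.1.0) and deposited raw UMI counts per gene and barcode, not normalized and with empty droplets; 0 columns could not be assigned to a sample. The cell filters are those of the study. The libraries were checked to be separate (median chi-square per gene 6.571 over 13800 genes). Doublets were kept, and an alternative left out the 5% of cells with the most UMIs.

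Counts were summed per library and class (6 classes, 12 sums) and fitted together with edgeR 4.0.16 (R 4.3.3; TMM, filterByExpr, quasi-likelihood F test, Benjamini-Hochberg, threshold 0.05), checked on simulated counts. Standard errors were derived from the fold change and its F statistic, and values of 1 library are differences of log2 CPM. The fit has no library term. The replicate numbers pair the sums, because those of 1 library share a culture, and their deviations from the class means correlated at 0.205 to 0.674 over the 15 pairs of classes. The fit with this block was an alternative, as were DESeq2 1.42.0, other filters and cell cuts. Free RNA was taken from barcodes with 1 to 100 UMIs, and its share from the 4 endothelial markers in the other classes. Shares thinned to 3000 UMIs are expected values. No p-value was made from cells.

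Named are all 9 chemokines, 9 pathway genes set by name (*Ackr3*, *Cxcr4*, *Ackr1*, *Ccr2*, *Cx3cr1*, *Adam10*, *Adam17*, *Nfkbia*, *Il6*), over the other lists together the 4 genes with the smallest adjusted p by *Myh11* and by *Il1rn*, and the 5 genes that co-occur most with *Cxcl1*, *Ccl2* and *Cxcl12*, among those in at least 2% of non-endothelial cells of each library. *Ccl3*, *Ccl4*, *Il1r1*, *Ccrl2*, *Ackr4*, *Vcam1* and *Icam1* were added after their values were seen. The members and lists were chosen with earlier results of these data known, and the shared promoter runs were found from the sequences themselves. Positions are those of GENCODE M21 on GRCm38.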

Additional observations from a re-analysis of the deposited data

Results flagged for a closer look

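Barcodes with 20% or more mitochondrial UMIs, which enter no comparison (87 in replicate 1 and 59 in replicate 2), also held chemokine UMIs above the limit of 3 counts, which is 7.361 CPM in replicate 1 and 9.355 CPM in replicate 2. In replicate 1, *Cxcl1* was at 12.27 CPM, *Cxcl12* at 436.8 CPM, *Cxcl16* at 12.27 CPM and *Ccl7* at 9.815 CPM in these barcodes, against 30.86, 1902, 51.84 and 44.53 CPM in cells. In replicate 2, *Cxcl12* was at 848.2 CPM, against 1671 CPM in cells, and *Cx3cl1* at 21.83 CPM from 7 UMIs, against 4.485 CPM in cells. *Cx3cl1* was the only one of these that was higher there than in cells, and it had 0 UMIs in such barcodes of replicate 1.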

How the results depend on the processing

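Numbers of genes called moved by more than 1.5 times as follows. By *Myh11*, 743 genes were called, against 1317 with DESeq2, 3308 with the library as a replicate block and 1499 with *Myh11* cuts of 10 and 0 UMIs. By *Il1rn*, the 0 genes became 22 with DESeq2, 3 without a filter on low counts, 48 with the block, 1 with an *Il1rn* cut of 2 UMIs and 4 with free RNA subtracted. For cycling cells, 726 genes became 1117 with DESeq2 and 2594 with the block. The share of calls that were higher went from 36.9% to 52.2% with the block by *Myh11*, from 94.6% to 80.6% with DESeq2 and 56.6% with the block for cycling cells, and from 62.3% to 50.9% without a filter in ECs, where the median of all genes moved from 0.05 to -0.221. Beside the calls of *Cxcl16*, *Cx3cl1*, *Cxcl12* in cycling cells and *Cxcl2* in ECs given above, the block changed no call of a chemokine. Not called and changing sign in ECs were *Cxcl5*, at 0.097 with a cycling cut of 10 UMIs, 0.158 without cells with macrophage markers and 2.666 with free RNA subtracted, and *Ccl7*, at 0.241 with the *Myh11* cuts. The causes were not tested. *Cxcl5* and *Cxcl12* by *Myh11* and *Cx3cl1*, *Cxcl16* and *Cxcl12* in ECs were called under all 11 alternatives. The alternative with free RNA subtracted used the share that was too high for *Myh11*-high cells of replicate 2. *Cxcl2* passed for cycling cells without a filter (adjusted p = 0.0482), and in ECs with DESeq2, without a filter and without cells with macrophage markers. With a library left out, 1 library per class remains and gives values with no test; no called chemokine changed sign, and *Ccl2* in ECs ranged from 1.03 to 3.58. *Ccl20* had too few UMIs to be tested, and ECs are the class with the fewest cells.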

Other observations

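Cycling *Myh11*-high cells, which enter no comparison, are given here by their values in replicates 1 and 2. *Cxcl12* was at 1172 and 1038 CPM, *Cxcl16* at 30.1 and 7.86 CPM, *Ccl2* at 29.9 and 6.25 CPM and *Ccl7* at 25.3 and 5.11 CPM, and *Cxcl5* had 0 and 1 UMIs. Free RNA, in barcodes with 1 to 100 UMIs, held *Cxcl12* at 1617 and 1561 CPM, *Cxcl1* at 26.0 and 8.22 CPM and *Ccl2* at 32.7 and 27.6 CPM, so that the difference in *Cxcl1* between the libraries was also seen outside cells.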
